A study of Mus musculus with 8 samples.

Results

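The acid-sensing ion channels (ASICs) are the 4 genes Asic1, Asic2, Asic3 and Asic4, and they were followed here by name among the 55573 genes counted in C low-threshold mechanoreceptors (C-LTMRs) of the mouse. C-LTMRs are unmyelinated touch neurons of the dorsal root ganglia. GFP-positive cells were isolated by flow cytometry, and the adult donors either lacked Bhlha9 (KO), which encodes a transcription factor of the basic helix-loop-helix class, or were wild type (WT), in a study whose title concerns thermotaxis, formalin-evoked pain and a difference between the sexes. The groups were male KO, male WT, female KO and female WT, with 2 libraries each, stated to be biological replicates. Sex was read from the letter M or F in the sample titles and was not checked with sex-linked genes. The driver of GFP, the part of Bhlha9 that was removed, the age in weeks and the number of animals behind a library are not given in the sources used here.

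ASICs are sodium channels that open when the outside of a cell turns acid, and they belong to the DEG/ENaC superfamily together with the epithelial sodium channel. A channel is a trimer of subunits, each with a large extracellular domain that senses protons, and different ASIC subunits can assemble with each other. Asic1 and Asic3 form channels that respond to a mild fall in pH, Asic2 mostly modulates the channels it joins, and Asic4 is not known to give a proton-gated current. Asic3 is best known from sensory neurons of the dorsal root ganglia, where it has been studied in acid-evoked and inflammatory pain.

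The libraries held between 50919885 and 71956309 counts assigned to genes, so that 3 counts equalled between 0.0417 and 0.0589 CPM, which is counts scaled to the same library total. The targeted gene matched the labels in all 8 libraries: Bhlha9 averaged 0.217 ± 0.0859 CPM in male KO and 156 ± 6.87 CPM in male WT (SD, n = 2 each), and 0.361 ± 0.153 CPM in female KO and 134 ± 8.88 CPM in female WT (SD, n = 2 each). The C-LTMR marker Th, the enzyme that makes DOPA, was at 2975 and 4138 CPM in male KO and 4851 and 4481 CPM in male WT, and at 3796 and 5357 CPM in female KO and 4861 and 4030 CPM in female WT. All 8 C-LTMR markers listed were detected in every library, and markers of the vessel wall and of immune cells summed to at most 45.9 and 25.4 CPM. Markers of other sensory neurons and of glia were present too, and their values are given beside Asic3 below. In sorted bulk samples fewer cells of a type and less RNA per cell cannot be told apart.

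Asic2 lies on the minus strand at chr11:80880169-81968457 (GRCm38), in 11 merged exons of 4264 bases. It is the only ASIC gene on the chromosome of Bhlha9, its near end being 4.21 Mb from Bhlha9 at chr11:76672470-76673676. Asic3 is compact, with 9 merged exons of 2423 bases at chr5:24413392-24417835 on the plus strand. Asic1 lies at chr15:99670368-99701130 on the plus strand with 12 merged exons of 5740 bases, some of them retained introns, and Asic4 at chr1:75450436-75474343 on the plus strand with 10 merged exons of 2727 bases. Reads were counted over exons without regard to strand. No exon of Asic1, Asic2 or Asic3 is shared with another gene, whereas 493 bases of Asic4, 18.1% of its exons, also belong to Gm37264 on the opposite strand.

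The promoter sequences of Asic2 and Asic3 are shown because the gene removed encodes a basic helix-loop-helix factor, a class that binds the E-box CANNTG, and because Asic2 was the ASIC gene with the most RNA and Asic3 the one that varied most. They come from RefSeq on GRCm38.p6, cover 250 bases before to 50 bases after a start, read 5′ to 3′ on the strand of the gene, and capitals mark CANNTG, which reads the same pattern on both strands. The Asic3 window is chr5:24413201-24413500 (plus strand), and the windows of the RefSeq starts of Asic2 are chr11:81152854-81153153 (inner start) and chr11:81968347-81968646 (outer start), both on the minus strand. The outer window covers the start of an annotated coding transcript of Asic2, at 81968457. The inner window does not cover the start, at 81153321, of the other annotated coding transcript and lies downstream of it.
Asic3: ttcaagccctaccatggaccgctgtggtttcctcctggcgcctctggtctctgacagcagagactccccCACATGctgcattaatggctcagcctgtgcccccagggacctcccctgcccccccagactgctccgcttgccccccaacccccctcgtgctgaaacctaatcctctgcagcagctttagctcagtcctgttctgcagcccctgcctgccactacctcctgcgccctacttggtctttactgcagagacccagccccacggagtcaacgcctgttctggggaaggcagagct
Asic2 inner start: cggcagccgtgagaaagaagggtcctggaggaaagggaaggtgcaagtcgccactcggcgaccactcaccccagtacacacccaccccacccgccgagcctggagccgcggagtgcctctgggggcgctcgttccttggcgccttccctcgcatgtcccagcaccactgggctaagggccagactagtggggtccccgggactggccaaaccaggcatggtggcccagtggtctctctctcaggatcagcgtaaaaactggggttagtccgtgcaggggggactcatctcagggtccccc
Asic2 outer start: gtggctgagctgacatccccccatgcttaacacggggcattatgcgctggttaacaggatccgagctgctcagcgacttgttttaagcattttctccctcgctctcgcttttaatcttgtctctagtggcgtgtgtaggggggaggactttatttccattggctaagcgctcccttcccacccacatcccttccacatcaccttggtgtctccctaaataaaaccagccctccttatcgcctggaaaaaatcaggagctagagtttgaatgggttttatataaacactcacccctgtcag
The Asic3 window held 1 match, CACATG, and both Asic2 windows held 0. The window of Asic1, at chr15:99691974-99692273, held 2 matches. It lies inside the gene and holds the start, at 99692233, of a shorter coding transcript. It does not cover the start of the longest coding transcript of Asic1, at 99670368. At least 1 match was in 72.3% of the 32851 promoters of the same length, with a median of 1, so a match or its absence is a property of these letters and was not tied to the factor.

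Asic2 was the most abundant ASIC transcript. It was measured at 117 and 212 CPM in male KO and 195 and 252 CPM in male WT, and at 179 and 222 CPM in female KO and 161 and 199 CPM in female WT. The lowest library was a male KO and the highest a male WT, and KO and WT overlapped in both sexes. Set per kilobase of exon, so that genes of different length can be compared, Asic2 averaged 45 CPM per kb over the 8 libraries, above 92.2% of the genes tested.

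Asic1, whose product forms homomeric and mixed proton-gated channels in both central and sensory neurons, came next. It was at 56.7 and 45.9 CPM in male KO and 56.1 and 65.5 CPM in male WT, and at 63.9 and 87.6 CPM in female KO and 33.7 and 68.5 CPM in female WT. The highest library was a female KO and the lowest a female WT, and the groups overlapped in both sexes. Its mean over 8 libraries was 10.4 CPM per kb, and Asic2 exceeded Asic1 per kb in 8 of 8 libraries by 2.77 to 6.42 times. The spread between replicates that edgeR estimated as a biological coefficient of variation was 27% for Asic1 and 23.5% for Asic2, lower than for most genes tested.

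Asic3, the subunit of fast and sustained acid currents in sensory neurons, differed between libraries far more than either. It was at 29.2 and 68.4 CPM in male KO and at 0.476 and 0 CPM in male WT, which were 1687 and 4436 counts against 30 and 0 counts. In females it was at 41.9 and 1.05 CPM in KO, or 2142 and 75 counts, and at 1.38 and 11.7 CPM in WT, or 78 and 738 counts. Both male KO libraries lay above both male WT libraries, whereas the female KO libraries lay on either side of the female WT libraries. The highest replicate was 39.8 times the lowest in female KO, 8.49 times in female WT and 2.34 times in male KO, and the biological coefficient of variation of Asic3 was 121%, where genes of its abundance had 37.3%.

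Asic4 was at or near the limit of detection. It had 0 and 4 counts in male KO and 0 and 0 counts in male WT, and 97 and 0 counts in female KO and 2 and 0 counts in female WT. Only female KO replicate 1 was above 3 counts by a wide margin, at 1.9 CPM, and this was also the library with the most counts of the antisense gene Gm37264, 209 against 0 to 36 in the other libraries. Because counting ignored strand and gave a read to every gene it overlapped, reads of Asic4 and Gm37264 cannot be told apart where their exons overlap. Asic4 was too low to be tested, so 3 of the 4 genes entered the tests.

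**Figure D1:**
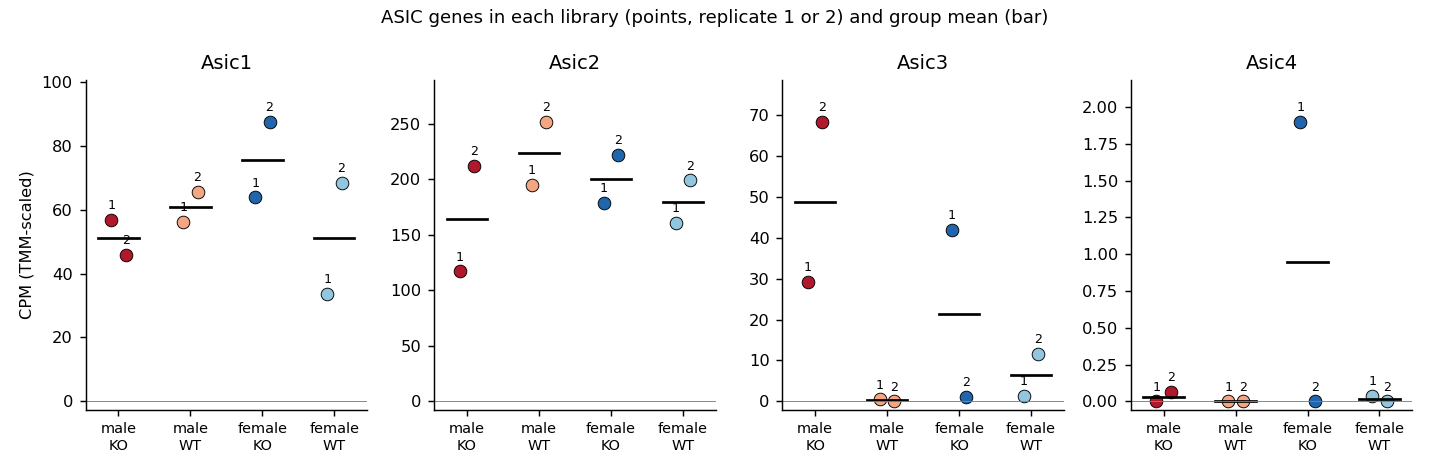
CPM (linear axis, 1 panel per gene with its own scale) of each ASIC gene in the 4 groups of male KO, male WT, female KO and female WT; points are libraries numbered by replicate and bars are means of 2. Asic1 and Asic2 overlap between KO and WT in both sexes, Asic3 is at 29.2 and 68.4 CPM in male KO against 0.476 and 0 CPM in male WT, and Asic4 exceeds 1 CPM in 1 library.

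The ASIC genes also differed in the share each held of their summed level per kb of exon. Asic2 held between 55.5% and 85.4% of the sum in every library. Asic3 held 24.5% and 32.9% in male KO and 0.353% and 0% in male WT, and 24.3% and 0.642% in female KO and 1.29% and 7.62% in female WT. It exceeded Asic1 per kb in 3 of 8 libraries, both male KO libraries and female KO replicate 1. The sum over the 4 genes ran between 44.1 and 85.8 CPM per kb.

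**Figure D2:**
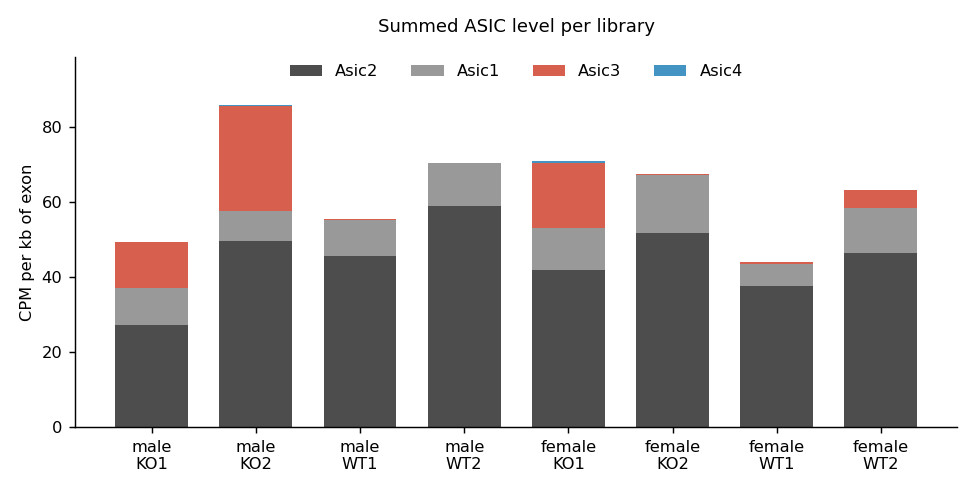
Stacked bars give the level of each ASIC gene in CPM per kb of exon (linear axis from 0) in each of the 8 libraries, named by sex, genotype and replicate. Asic2 makes up the largest segment in every library, and the Asic3 segment exceeds that of Asic1 in male KO 1, male KO 2 and female KO 1.

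By mean level the groups stood in the order female KO, male WT, male KO, female WT for Asic1 and male WT, female KO, female WT, male KO for Asic2, and every pair of neighbours in these orders overlapped. For Asic3 the order was male KO at 48.8 ± 27.7 CPM, female KO at 21.5 ± 28.9 CPM, female WT at 6.53 ± 7.29 CPM and male WT at 0.238 ± 0.336 CPM (SD, n = 2 each). Among neighbours in that order, female WT and male WT did not overlap and the other pairs did.

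In males, where the comparison asks what loss of Bhlha9 changed, Asic3 had the largest fold change of the 3 genes tested and did not pass. Its log2 fold change of KO over WT was 7.67 (SE 2.39, 95% interval 1.97 to 13.37), with an edgeR quasi-likelihood p of 0.0157 before and 1 after Benjamini-Hochberg adjustment over 22013 genes. With DESeq2 the adjusted p was 0.076. Asic2 had a log2 fold change of -0.44 (SE 0.31, 95% interval -1.18 to 0.3) and Asic1 of -0.24 (SE 0.36, 95% interval -1.1 to 0.61), both with an edgeR adjusted p of 1.

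None of the 3 genes passed edgeR or DESeq2 in males, where 0.00454% of all genes passed edgeR and 0.754% passed DESeq2. Asic3 was the 1 gene of 3 with an unadjusted edgeR p below 0.05, as were 3.5% of all genes. It was also the 1 gene of 3 with both KO libraries above both WT libraries, an arrangement found in 14.5% of all genes. The intervals show how much these 2 replicates a group can resolve: for Asic2 they reach 0.44 to 1.23 times the WT level, and for Asic3 3.93 to 10569 times.

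In females none of the 3 genes passed edgeR or DESeq2, or had an unadjusted edgeR p below 0.05, and none was without overlap. Of all genes 0.00454% passed edgeR, 0.759% passed DESeq2 and 3.81% had an unadjusted edgeR p below 0.05. Both KO libraries were above both WT libraries in 14.2% of all genes and below in 15.1%. The log2 fold change was 1.72 for Asic3 (SE 1.8, 95% interval -2.57 to 6), 0.57 for Asic1 (SE 0.36, 95% interval -0.29 to 1.43) and 0.16 for Asic2 (SE 0.31, 95% interval -0.58 to 0.9), each with an edgeR adjusted p of 1. The female value of Asic3 rests on KO replicate 1: without that library it was -2.63.

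The difference between the sexes in the KO effect was tested itself. For Asic3 the male effect exceeded the female effect by 5.96 on the log2 scale (SE 2.74, 95% interval -0.59 to 12.5, edgeR adjusted p = 0.98). The difference was -0.81 for Asic1 (SE 0.51) and -0.6 for Asic2 (SE 0.44), each with an edgeR adjusted p of 1. None of the 3 genes passed edgeR or DESeq2, as 0% and 0.986% of all genes did. By edgeR 0 of 3 had an unadjusted p below 0.05, as 4.73% of all genes did. A difference between males and females in these genes was therefore not shown.

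Over both sexes Asic3 averaged 35.1 ± 28 CPM in KO and 3.38 ± 5.56 CPM in WT (SD, n = 4 each). Its log2 fold change was 4.49 (SE 2.17, 95% interval -0.55 to 9.54) with an adjusted p of 1 by edgeR and 0.471 by DESeq2, and the ranges overlapped. Asic2 stood at -0.14 (SE 0.23) and Asic1 at 0.16 (SE 0.28), each with an edgeR adjusted p of 1. None of the 3 genes passed, against 0.00454% of all genes by edgeR and 0.236% by DESeq2. By edgeR 0 of the 3 had an unadjusted p below 0.05, against 3.56% of all genes, while DESeq2 gave Asic3 an unadjusted p of 0.00987. Of the 3, 0 had no overlap between KO and WT, against 0.936% of all genes with KO above WT and 0.895% with KO below. This comparison uses the same libraries as those within each sex.

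Between the sexes without loss of Bhlha9, Asic3 was at 0.476 and 0 CPM in male WT and at 1.38 and 11.7 CPM in female WT, without overlap. The log2 fold change of males over females was -4.77 (SE 2.13, 95% interval -9.86 to 0.32, edgeR adjusted p = 0.903). It was 0.31 for Asic2 (SE 0.31, edgeR adjusted p = 0.953) and 0.25 for Asic1 (SE 0.36, edgeR adjusted p = 0.98). None of the 3 genes passed, against 0% of all genes by edgeR and 0.613% by DESeq2. By edgeR 0 of 3 had an unadjusted p below 0.05, against 4.44% of all genes, while DESeq2 gave Asic3 an unadjusted p of 0.038. Since edgeR passed no gene in this comparison, not passing it does not show that a gene is alike in males and females. Asic3 was the 1 gene without overlap, in the direction found in 19.6% of all genes, while 18.8% had both male WT libraries above both female WT libraries. The authors' deposited tables of genes past 5% held 150 genes for males and 13 for females, and 0 of the 4 ASIC genes in either.

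**Figure D3:**
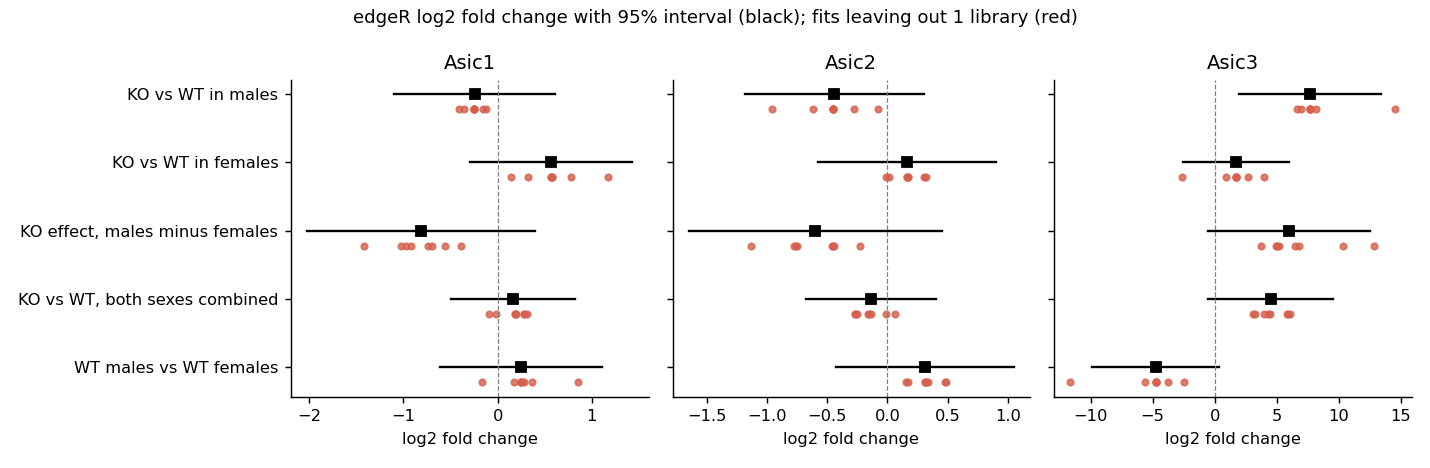
Log2 fold change (horizontal axis, 1 panel per gene with its own scale) of Asic1, Asic2 and Asic3 in 5 comparisons, with KO over WT, or males over females, to the right of 0; black squares and lines are the edgeR estimate and its 95% interval, red points the fits that each leave out 1 library. Only the male Asic3 interval, 1.97 to 13.37, lies wholly to one side of 0, and the adjusted p of that comparison is 1.

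The genes whose log2 CPM ran most like that of Asic3 over the 8 libraries were Kcnk4, Ampd3 and Nrn1l. Kcnk4, which encodes the mechanically and thermally gated potassium channel TRAAK, had a Pearson r of 0.982 and a Spearman rho of 0.952. It was at 16.3 and 17.9 CPM in male KO and 1.46 and 0.126 CPM in male WT, and at 13.8 and 3.09 CPM in female KO and 2.35 and 6.03 CPM in female WT. The 3 libraries with the most Asic3 were also those with the most Kcnk4. Ampd3, an AMP deaminase, had an r of 0.977 and ran between 14.6 and 23.3 CPM, and Nrn1l, a relative of neuritin, had an r of 0.942. The points share library and depth, the genes were picked as the highest of 11856, and the values are a description.

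Asic2 ran most like Evi5l, which encodes a GTPase-activating protein for Rab proteins (r = 0.977), Ip6k1, an inositol hexakisphosphate kinase (r = 0.976), and 4932443L11Rik (r = 0.975). Asic1 ran most like Nckipsd, an adaptor with an SH3 domain (r = 0.936), Cd99l2, an adhesion molecule (r = 0.933), and Rnf31, a ubiquitin ligase (r = 0.924). No gene was among the 3 closest of more than 1 ASIC gene. Between the ASIC genes themselves r was 0.372 for Asic1 and Asic2, -0.507 for Asic2 and Asic3 and -0.15 for Asic1 and Asic3.

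Markers of other sensory neurons differed between libraries too, in males mostly in the direction of Asic3 and in females in both directions. In females the log2 fold change was above 0 for 2 of 9 peptidergic, 3 of 6 nonpeptidergic and 4 of 9 myelinated markers tested. The 9 peptidergic nociceptor markers summed to between 1515 and 2081 CPM in male KO and between 700 and 747 CPM in male WT, and to between 507 and 1566 CPM in female KO and between 1208 and 1948 CPM in female WT. Among them Smr2 was at 0 in 3 libraries. Calca, the precursor of CGRP, was at 578 and 910 CPM in male KO and 59.4 and 88.4 CPM in male WT, and at 712 and 5.94 CPM in female KO and 350 and 852 CPM in female WT. Calca was thus low in both male WT libraries and in female KO 2, where Asic3 was also at most 1.05 CPM, but it was at 350 CPM in female WT 1, where Asic3 was at 1.38 CPM.

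The markers of nonpeptidergic nociceptors and pruriceptors, 8 genes, summed to between 92.5 and 312 CPM in male KO and between 64.5 and 93 CPM in male WT, and to between 27.2 and 116 CPM in female KO and between 53.8 and 64.6 CPM in female WT. Mrgprd, a receptor of the nonpeptidergic nociceptors, was at 37.7 and 121 CPM in male KO and 3.33 and 1.3 CPM in male WT, and at 41.2 and 0.0421 CPM in female KO and 13.1 and 1.12 CPM in female WT. Its 3 highest libraries were those of Asic3. Lpar3 was at 14.8 and 86 CPM in male KO and 3.25 and 6.46 CPM in male WT, and at 35.2 and 5.67 CPM in female KO and 21.5 and 1.24 CPM in female WT. It was highest in male KO 2 and female KO 1, as Asic3 was, but came next in female WT 1. Others of this list departed further: P2rx3, a purinergic receptor, was at 25.4 and 86.3 CPM in male KO and 42.3 and 69.2 CPM in male WT. Il31ra ran between 11.3 and 15.6 CPM over all libraries, and Mrgpra3 was highest in female WT 1 at 7.87 CPM. Of the pruriceptor markers, Sst was at 0 in 7 of 8 libraries and Nppb in 6. The 9 myelinated afferent markers summed to between 498 and 2090 CPM in male KO and between 246 and 379 CPM in male WT, and to between 290 and 455 CPM in female KO and between 286 and 337 CPM in female WT. Among them Nefh was at 1550 and 296 CPM in male KO and 104 and 72.4 CPM in male WT. In females Nefh was at 132 and 69.5 CPM in KO and 84.2 and 61.3 CPM in WT, so its 3 highest libraries were also those of Asic3. Others of this list had another order, such as Ntrk3, highest in female KO 1 at 265 CPM.

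The 9 glial markers summed to between 2547 and 3757 CPM in male KO and between 3297 and 3721 CPM in male WT, ranges that overlapped, as did those of 2680 to 4007 CPM in female KO and 3259 to 3468 CPM in female WT. Pmp22 and Mbp, at a mean of 2669 and 472 CPM, made up most of these sums, and both overlapped between KO and WT in males. The sums therefore say little about the other glial markers, which are counted by gene below. The glial gene S100b, which large sensory neurons express too, was at 321 and 61 CPM in male KO against 14.8 and 4.95 CPM in male WT. In females S100b was at 35.3 and 5.01 CPM in KO and 13.6 and 27.5 CPM in WT, so its 3 highest libraries were also those of Asic3. Another glial marker, Sox10, was lowest in female KO 1 at 1.19 CPM. The C-LTMR markers summed to between 5870 and 8204 CPM in male KO and between 8846 and 8936 CPM in male WT, and to between 7756 and 9916 CPM in female KO and between 7535 and 9349 CPM in female WT. In males both KO libraries were therefore higher than both WT libraries in Asic3 and in the sums of peptidergic and myelinated markers, and lower in the sum of C-LTMR markers. By gene, 5 of 9 peptidergic, 4 of 9 myelinated, 6 of 9 glial, 3 of 6 vascular and 2 of 6 tested nonpeptidergic markers had both male KO libraries above both male WT libraries, against 14.5% of all genes. Both male KO libraries were below for 6 of 8 C-LTMR markers and 1 of the 6 nonpeptidergic markers, also against 14.5%. In females most markers without overlap ran against the direction of the Asic3 mean: 6 of 9 peptidergic, 3 of 9 myelinated, 2 of 9 glial, 1 of 6 nonpeptidergic and 2 of 6 vascular markers were lower in each KO library than in either WT library, against 15.1% of all genes, and 1 myelinated and 2 C-LTMR markers had both above, against 14.2%. None of these markers passed edgeR in either sex; DESeq2 passed 2 peptidergic, 2 myelinated and 1 glial marker in males, and 3 peptidergic, 1 myelinated and 2 vascular markers in females. Vascular and fibroblast markers, 6 genes, summed to 8.52 to 45.9 CPM in male KO and 2.04 to 2.74 CPM in male WT, and to 1.08 to 3 CPM in female KO and 30.4 to 30.5 CPM in female WT. The part of these markers in the Asic3 values was not tested.

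**Figure D4:**
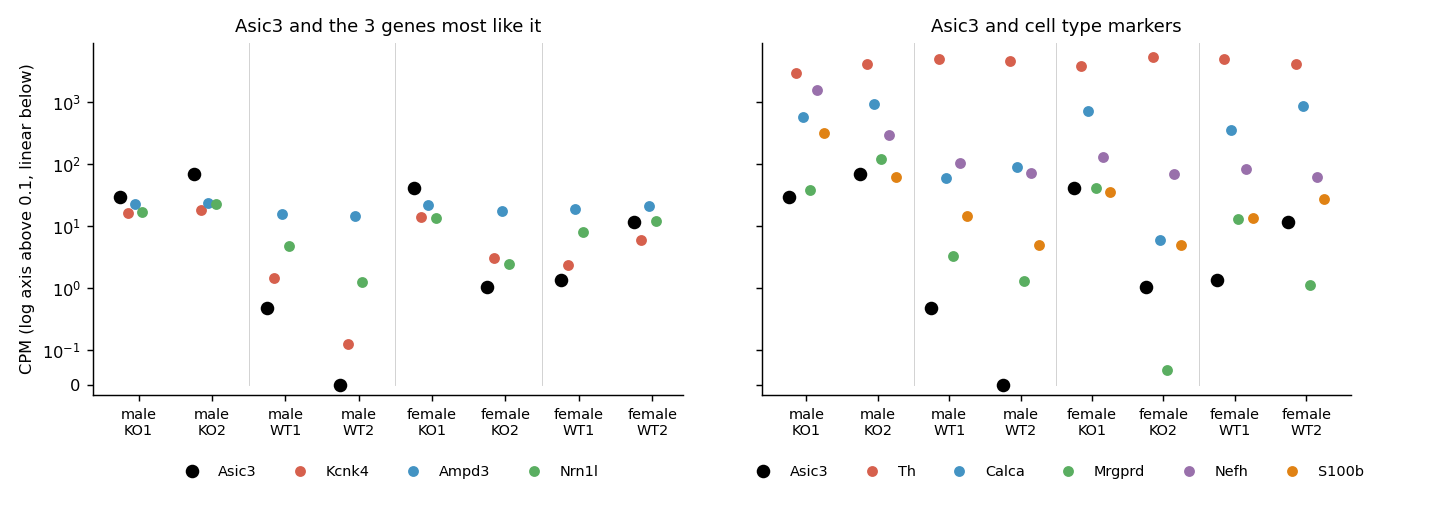
CPM in each of the 8 libraries (log axis above 0.1 CPM and linear below it), with Asic3 in black beside Kcnk4, Ampd3 and Nrn1l on the left and beside Th of C-LTMRs, Calca of peptidergic, Mrgprd of nonpeptidergic and Nefh of myelinated neurons and S100b of glia on the right. Asic3, Kcnk4, Ampd3, Nrn1l, Mrgprd, Nefh and S100b are highest in male KO 1, male KO 2 and female KO 1. Calca is also at 852 CPM in female WT 2, and Th stays between 2975 and 5357 CPM. Only 1 marker is drawn per cell type, and others of its list can run differently.

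Of the other genes for sensing protons and for ASIC function, 29 were listed and 20 tested. None passed edgeR in males or in females, where 0.00454% of all genes passed in each. Their log2 fold changes of KO over WT were above 0 for 10 and below 0 for 10 in males, and above 0 for 6 and below 0 for 14 in females, where 51.9% and 49% of all genes were above 0. By edgeR without adjustment 0 of the 20 had a p below 0.05 in males and 3 in females, Kcnk3, Kcnk5 and Pick1, against 3.5% and 3.81% of all genes. DESeq2 passed Gpr4 in males and Gpr4 and Kcnk3 in females, against 0.754% and 0.759% of all genes, and the Gpr4 call rests on 1 WT library in each sex, at 0.629 CPM in males and 5.99 CPM in females, with 0 counts in the other libraries.

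Of the genes for other proton sensors, 10 of 12 had a count in some library and 8 were tested. Their levels were at most moderate, and Gpr65 and Kcnk9 averaged only 0.0409 and 0.0955 CPM. The log2 fold change was above 0 for 4 of the 8 and below for 4 in males (median 0.14, over all genes 0.02). In females it was above 0 for 1 and below for 7 (median -2.11, over all genes 0). Kcnk3 encodes the acid-inhibited leak potassium channel TASK-1. It was at 8.72 and 8.64 CPM in male KO and 5.33 and 7.42 CPM in male WT, and at 5.48 and 8.14 CPM in female KO and 19.3 and 23.3 CPM in female WT. Female WT thus stood above the other 3 groups, and within females the log2 fold change was -1.64 (SE 0.37), with an adjusted p of 1 by edgeR and 0.0252 by DESeq2. The difference of that effect between the sexes, 2.09 (SE 0.52), had an adjusted p of 0.98 by edgeR and 0.0595 by DESeq2.

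Trpv1, the channel opened by heat, capsaicin and protons, was at 5.04 and 40.9 CPM in male KO and 0 and 8.03 CPM in male WT, and at 3.82 and 0.0562 CPM in female KO and 10.8 and 46.1 CPM in female WT. Its groups overlapped in males, both female KO libraries lay below both female WT libraries, and its edgeR adjusted p was 1 in each sex. The proton-activated chloride channel gene Tmem206 ran between 22.5 and 56.6 CPM, and Pkd1l3, which encodes a polycystin of acid-sensing taste cells, averaged 8.95 CPM. Of the other DEG/ENaC members, Asic5, Scnn1b and Scnn1g had 0 counts in all 8 libraries and Scnn1a reached 0.745 CPM.

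Of the genes for proteins that bind or modulate ASICs, 11 of 11 had a count in some library and 10 were tested. Their levels differed widely, and Stoml3, Stom and Akap5 averaged only 0.0393, 1.75 and 1.76 CPM. The log2 fold change was above 0 for 5 and below 0 for 5 in males (median -0.01). In females it was above 0 for 3 and below 0 for 7 (median -0.04). Among the highest were S100a10, the annexin partner p11, at 831 to 1564 CPM, the stomatin relative Stoml1 at 220 to 347 CPM and the scaffold Magi1 at 161 to 241 CPM. Pick1, a PDZ protein that binds the C terminus of ASIC1 and ASIC2, averaged 50 ± 3.34 CPM in male KO and 64.7 ± 20.9 CPM in male WT, and 71.1 ± 21 CPM in female KO and 40.5 ± 2.33 CPM in female WT (SD, n = 2 each). Its log2 fold change was -0.37 (SE 0.3) in males and 0.81 (SE 0.3) in females, with an edgeR adjusted p of 1 in each sex.

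The PDZ scaffold Lin7b averaged 24.1 ± 7.94 CPM in male KO and 16.4 ± 0.0118 CPM in male WT, and 22.1 ± 9.86 CPM in female KO and 11.2 ± 5.8 CPM in female WT (SD, n = 2 each). Dlg4, which encodes PSD-95, averaged 30.4 ± 7.07 CPM in male KO and 32 ± 3.32 CPM in male WT, and 25.3 ± 11.5 CPM in female KO and 41.2 ± 7.87 CPM in female WT (SD, n = 2 each). Stom, the membrane protein stomatin, which inhibits ASIC3 currents, was at 5.99 and 4.02 CPM in male KO and 0.666 and 0 CPM in male WT, and at 0 and 0.0842 CPM in female KO and 0.0353 and 3.23 CPM in female WT. The edgeR adjusted p was 1 for each of these genes in each sex. Of the precursors of peptides that modulate ASICs, Pdyn had a mean of 0.244 CPM and Npff reached 0.0629 CPM.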

How the data were processed

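Per the labels' protocols, full-length cDNA was made from 500 pg of RNA of sorted cells with SMART-Seq v4 and 13 PCR cycles, and libraries with Nextera XT and 12 cycles. Without molecular identifiers the counts hold PCR copies, and limits given at 3 counts cover counting error only. The deposited file holds raw read counts per gene, made per the file headers with featureCounts 1.6.1 over Ensembl GRCm38 release 97 exons, unstranded, with a read counted in each gene it overlaps. The submitters' processing notes name DESeq2 1.14.1, bcl2fastq 2.17.1.14 and Subread 1.6.4. Which aligner was used is not given in the sources. The authors' deposited tables hold, per the file headers, a mean signal, log2 fold changes, a test score and p-values for genes past 5%, and were used only to look for the ASIC genes.

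Counts were tested with edgeR 4.0.16 in R 4.3.3 (filterByExpr, 22013 genes kept, TMM factors, robust quasi-likelihood F test, two-sided, Benjamini-Hochberg adjustment over all genes kept, threshold 0.05), with 4 groups in 1 fit and sex plus genotype for the combined comparison. CPM uses TMM-scaled totals; log2 CPM has a prior count of 2. DESeq2 1.42.0, RLE size factors, no filter, a replicate block, the compared libraries alone and leaving out each library were alternatives.

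The members and lists were chosen with earlier results of these data known. Up to 4 tested genes per list with the lowest p in either sex and a mean of at least 1 CPM were named, beside the 3 genes most correlated with each ASIC gene at a mean of at least 5 CPM. Values of Stoml1, S100a10, Magi1, Scnn1a, Gpr4, Pdyn, Npff, Calca, Mrgprd, Mrgpra3, P2rx3, Il31ra and S100b were added after they were seen. So were those of Nefh, Ntrk3, Sox10, Lpar3, Stoml3, Akap5, Gpr65 and Kcnk9. Promoters came from RefSeq, which gave 3 of the 4 genes an entry; for Asic4 none is printed.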

Additional observations from a re-analysis of the deposited data

Results flagged for a closer look

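In 8 sets of 4 libraries, the KO and the WT libraries of each ASIC gene, the gap of the most distant library to its neighbour was set against the range of the set. In 3 sets this ratio exceeded the 95% critical value of Dixon's test for 4 samples. Chance exceeds it in about 5% of sets drawn from a single normal distribution. Each set here holds CPM of both sexes, so that rate need not hold for any of them. It does not apply to the 2 sets of Asic4, where many libraries had 0 counts. In its WT set a single library was above 0, which gives a ratio of 1 by construction. In its KO set male KO 2 had 4 counts and female KO 1 had 97, and the others had 0. Asic3 in the WT libraries stood at 11.7 CPM in female WT 2, against at most 1.38 CPM in the other 3 (ratio 0.882). Asic4 in the KO libraries stood at 1.9 CPM in female KO 1, against at most 0.0616 CPM in the other 3 (ratio 0.968). Asic4 in the WT libraries stood at 0.0353 CPM in female WT 1, which is 2 counts, against 0 in the other 3 (ratio 1).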

How the results depend on the processing

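Over 15 fold changes of the ASIC genes, 183 of 189 alternative values kept their direction and their side of the threshold, and 6 reversed, each on leaving out 1 library. The ranges with reversals were -2.63 to 3.96 for Asic3 and -0.01 to 0.32 for Asic2 in females, -0.27 to 0.06 for Asic2 and -0.09 to 0.31 for Asic1 over both sexes, and -0.17 to 0.85 for Asic1 between WT males and WT females. The cause was not tested. For male Asic3 the range was 6.64 to 14.54, the highest without male WT replicate 1, which leaves a WT library at 0 counts, so it is no bound; for male Asic2 it was -0.96 to -0.08. The adjusted p of male Asic3 ran between 0.076 and 1 over its alternatives.

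DESeq2 passed 166 genes in males, 167 in females, 217 for the difference between the sexes, 52 over both sexes and 135 between WT males and WT females, where edgeR passed 1, 1, 0, 1 and 0. Of the 29 genes listed for proton sensing and ASIC function it passed 1 in males, 2 in females, 1 over both sexes and 1 between WT males and WT females, where edgeR passed 0. In a fit of only the 4 libraries compared edgeR passed 0 genes in males and 0 in females. Without the filter on low counts 3 genes passed between WT males and WT females, and on leaving out a library 0 to 1. With the replicate block 0 genes passed in females, and Asic3 had a log2 fold change of 8.13 (SE 2.77) in males and 1.01 (SE 2.79) in females. Same-numbered libraries deviated together with a correlation of -0.014 between male KO and WT and 0.001 between female KO and WT. Over all pairs of groups the correlation ran from -0.102 (male WT and female KO) to 0.109 (male KO and female KO). Such values cannot show whether same-numbered libraries were handled together, and the numbers were treated as names only.

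With 2 libraries a group and 4 residual degrees of freedom, the intervals of Asic3 span several log2 units. The SE of an edgeR fold change was its size over the square root of F, with the spread pooled over all libraries of the fit. Intervals used the residual degrees of freedom plus those edgeR adds from the other genes. All 32 alternative group levels stayed within 1 SD. With the length of the longest coding transcript in place of merged exons, a choice made after seeing the data, Asic2 stood above Asic1 in 8 of 8 libraries and Asic3 above Asic1 in 3.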
